A study of Mus musculus with 48 samples.

Results

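The 10 genes described here are the transcription factors Sox17, Sox7 and Foxa2, the laminin chains Lama1, Lamb1 and Lamc1, the endocytic genes Dab2, Cubn and Amn, and the receptor Pdgfra. They were taken by symbol from a count table of 22173 genes and an FPKM table of 13682 genes, and by Ensembl identifier from a single-cell table of 32285 genes. All 10 were present in each of the 3 tables. They are known as a set from the mouse extraembryonic endoderm, the tissue that surrounds the early embryo and forms its visceral and parietal layers. Sox17, Sox7 and Foxa2 are DNA-binding regulators of that tissue, which secretes laminin, a cross-shaped protein of 1 alpha, 1 beta and 1 gamma chain that anchors the sheet of matrix beneath an epithelium. Cubn (cubilin) and Amn (amnionless) form the receptor complex by which visceral endoderm takes up nutrients, Dab2 is the adaptor that couples such receptors to clathrin, and Pdgfra is the receptor for platelet-derived growth factor that marks the primitive endoderm. None of the 10 is exclusive to endoderm. Endothelium also uses Sox17 and Sox7, kidney tubules use Cubn, and many mesenchymal cells use Pdgfra.

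The study induced gonadal somatic cell-like cells from C57BL/6 mouse embryonic stem cells with vitamin C (Vc) and AM580, an agonist of retinoic acid receptor alpha, a combination named V580. Bulk libraries of the induced cells were Con (no compound), Vc, AM580 and V580 at 24 h and at 48 h (n = 2 each), and V580_D4, V580_D6, V580_D8 and V580_D10 for days 4, 6, 8 and 10 (n = 3 each). Per the study's methods, the stem cells were freed of feeders by their adherence and plated on fibronectin. The tissue libraries came from female C57BL/6 mice. E12.5_GC (n = 3) is labelled only as separated from E12.5 gonads, and shares the FPKM table with the induced cells. E12.5_GSC, E13.5_GSC, E16.5_GSC and P6w_GSC (n = 2 each, the last from ovaries at 6 weeks) are gonadal somatic cells, separated per the study's methods by depleting SSEA1-positive cells on magnetic columns, and fill the count table. A single droplet-based library held V580_D6 cells. No animal numbers or culture identities were given, so p-values measure only the spread between these samples, which may be technical.

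The 8 stage libraries held between 12694769 and 22259044 counts. The FPKM values, multiplied by exon length, fell on whole reads for 13395 of 13655 genes with a length, the 10 genes among them, and implied 16442635 to 28312703 reads per library. The single-cell library held 15412 barcodes, all distinct, of which 15315 passed the filters with a median of 9281 UMIs (unique molecules counted). Markers of the labelled tissues were checked first. The summed level of 8 gonadal somatic genes lay between 805 and 927 FPKM in E12.5_GC and between 31.5 and 137 FPKM on the V580 days, where Nr5a1, Lhx9 and Kctd14 were near 0. E12.5_GC also held endothelial genes, with a summed level of 53.2 to 88.2 FPKM over 6 genes against 1.78 to 2.05 on V580_D4, where all 6 were called lower by limma. On V580_D10 the sum was 54.8 to 56.2 FPKM, but it was mostly Kdr (50.8 FPKM against 15.5 in E12.5_GC, called higher), and the other 5 were called lower, such as Cdh5 (3.37 against 28.2 FPKM) and Pecam1 (0.24 against 12.2 FPKM). E12.5_GC replicate 1 stood apart in the summed level of a list of liver genes, with 20.6 FPKM against 0.29 in the lowest. Of this list, Apoa2 averaged 6.44 FPKM in E12.5_GC and Hnf4a, the other gene tested, 0.29 FPKM. Apoa2 was also at 52.8 FPKM in Con_48h and 17.0 FPKM on V580_D10. The source of the level in E12.5_GC replicate 1 was not tested.

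In the genome build mm10 (GRCm38), the regulators lie at chr1:4490931-4497354 (Sox17), chr14:63943673-63950732 (Sox7) and chr2:148042877-148046969 (Foxa2). The laminin genes lie at chr17:67697259-67822647 (Lama1), chr12:31265234-31329644 (Lamb1) and chr1:153218922-153332786 (Lamc1). Dab2 lies at chr15:6299788-6440712, Cubn at chr2:13276338-13491813, Amn at chr12:111271095-111276426 and Pdgfra at chr5:75152292-75198215. All 10 are annotated as protein-coding. Sox17, Foxa2, Lamc1 and Cubn are on the minus strand.

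Cubn, Foxa2 and Lamb1 stood for 3 patterns in the treatment libraries, a gene near its floor that rose with AM580, a regulator that did the same, and a chain that hardly moved. Their upstream sequences are shown for that reason. Each is the 250 bases before an annotated start in RefSeq (GRCm38.p6), 5′ to 3′ on the strand of the gene, with capitals marking, on either strand, the letters GGGCGG, known as a GC box, or AGATAA, known from factors of the Gata family. They are Cubn at chr2:13491877-13492126 (minus strand), the start of Foxa2 that lies farthest inside the gene at chr2:148045465-148045714 (minus strand), and Lamb1 at chr12:31265043-31265292 (plus strand).
Cubn: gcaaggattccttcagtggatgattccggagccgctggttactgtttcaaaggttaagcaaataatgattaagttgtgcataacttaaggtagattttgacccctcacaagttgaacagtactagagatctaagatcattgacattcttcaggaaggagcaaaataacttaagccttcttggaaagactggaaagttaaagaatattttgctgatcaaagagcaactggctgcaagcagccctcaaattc
Foxa2: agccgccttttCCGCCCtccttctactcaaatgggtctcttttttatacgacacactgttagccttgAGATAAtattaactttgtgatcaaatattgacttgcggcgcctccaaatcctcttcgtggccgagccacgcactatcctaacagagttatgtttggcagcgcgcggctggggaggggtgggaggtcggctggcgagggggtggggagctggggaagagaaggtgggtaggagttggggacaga
Lamb1: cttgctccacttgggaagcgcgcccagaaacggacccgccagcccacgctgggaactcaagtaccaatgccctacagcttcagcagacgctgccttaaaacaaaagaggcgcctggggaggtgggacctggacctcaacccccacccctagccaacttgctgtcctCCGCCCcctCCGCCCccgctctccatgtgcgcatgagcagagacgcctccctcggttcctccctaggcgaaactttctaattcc

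The letter patterns below were searched on both strands of the 9 promoters that the tables held for 6 of the genes (Foxa2, Pdgfra, Lamb1, Amn, Dab2 and Cubn). AGGTCA, a half-site of retinoic acid receptors, was in 0 of the 9, against 14.0% of 32851 mouse promoters of the same length. AGTTCA, a variant half-site, was in 0 of 9 (11.8% of all promoters), ATTGT, a SOX core, in 0 (27.7%), and TGTTTAC, a forkhead motif, in 0 (3.17%). A direct repeat of the first pattern spaced by 5 bases (DR5), which overlaps it, was in 0 of 9 and in 3 promoters of all. GGGCGG was in 4 promoters of 3 genes (Foxa2, Lamb1 and Amn, 32.7% of all promoters), and AGATAA in 1 Foxa2 promoter, 183 to 178 bases before its start (9.99% of all promoters). These are matches of letters and show no binding.

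The first question was which compound moved the 10 genes in the first 2 days of induction. At 48 h, AM580 alone raised Cubn, Lama1, Dab2, Sox7 and Foxa2 at least 2-fold, on the scale log2(FPKM + 1), and lowered none. This was 5 of the 9 genes with enough signal to be tested, where 2.33% of 10644 genes were called higher and 3.23% in either direction. A call here needed a Benjamini-Hochberg adjusted p below 0.05 over all genes and a 2-fold difference on that scale in limma. Because a pseudocount of 1 shrinks the fold of a gene near 0, edgeR was also run on the recovered reads, a choice made after seeing the data. There AM580 raised 7 of 10, with Sox17 and Pdgfra added to the 5, where 6.12% of 12318 genes were called higher. Sox17 and Foxa2 passed the filter of the FPKM test, 1 FPKM in 2 libraries, only through the AM580_48h libraries. Cubn passed it only through the AM580 and V580 libraries at 48 h, and Sox7 only through AM580 and V580 libraries. Calls of these genes between the treatment libraries are therefore no support for the counts of called genes. Pdgfra did not pass the filter.

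**Figure D1:**
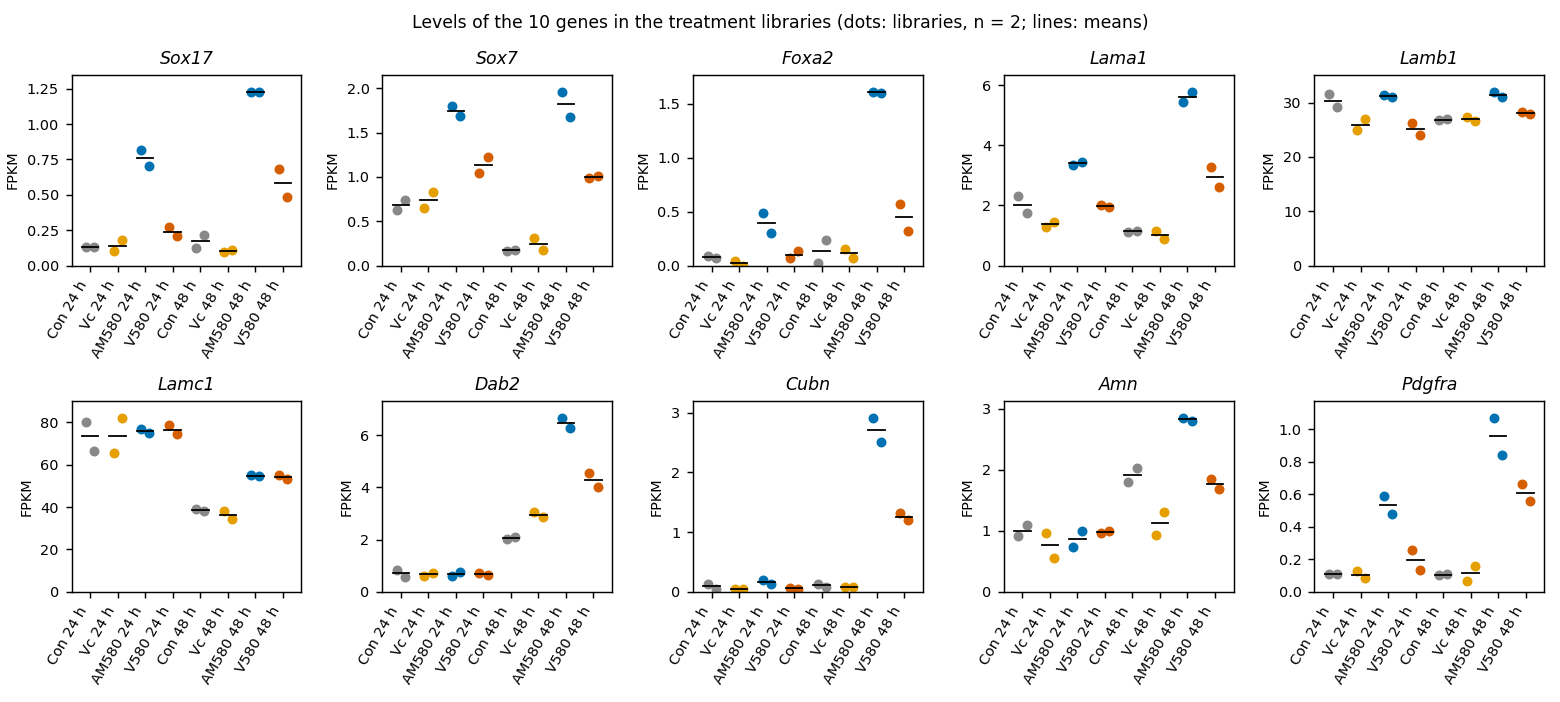
FPKM (vertical axis, from 0, a separate scale for each gene) of the 10 genes in Con, Vc, AM580 and V580 libraries at 24 h and 48 h; dots are libraries (n = 2) and lines are means. For Sox17, Foxa2, Cubn, Lama1, Dab2 and Pdgfra both AM580 libraries at 48 h lie above both V580 libraries, which lie above both Con libraries, while Lamb1 stays between 24.1 and 32.0 FPKM in every library.

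Among the regulators, Sox17 was at 0.13 and 0.22 FPKM in Con_48h, which is 12 and 22 reads, and at 1.23 and 1.23 FPKM in AM580_48h, 115 and 111 reads. V580_48h lay between them at 0.68 and 0.48 FPKM, and Vc_48h at 0.10 and 0.11. The 3 levels did not overlap. By limma, AM580 raised Sox17 by 0.93 ± 0.07 on the log2(FPKM + 1) scale (SE, n = 2, adjusted p = 9.5e-08), short of 2-fold, and by edgeR on reads by 2.84 ± 0.25 log2 units (adjusted p = 3.3e-08). Sox7, the relative of Sox17 that is prominent in parietal endoderm, was at 0.17 in both Con_48h libraries, at 1.96 and 1.68 FPKM in AM580_48h and at 0.99 and 1.01 FPKM in V580_48h (AM580 against Con 1.27 ± 0.08, adjusted p = 6.0e-09 by limma). Foxa2, a forkhead factor of visceral and definitive endoderm, had 1 and 12 reads in Con_48h, 75 and 72 reads in AM580_48h, and 27 and 14 reads in V580_48h. Its AM580 difference was 1.21 ± 0.10 by limma (adjusted p = 1.3e-07) and 3.59 ± 0.44 by edgeR on reads (adjusted p = 2.3e-06).

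Cubn showed the largest difference of the 10. It was at 0.12 and 0.09 FPKM in Con_48h, 0.08 and 0.07 in Vc_48h, 1.32 and 1.20 in V580_48h and 2.91 and 2.50 in AM580_48h. In reads these were 37 and 28 against 852 and 708 for Con and AM580. The AM580 difference was 1.74 ± 0.07 by limma (adjusted p = 3.6e-11) and 4.69 ± 0.19 by edgeR on reads (adjusted p = 4.1e-13). Dab2 was at 2.03 and 2.10 FPKM in Con_48h, 3.04 and 2.86 in Vc_48h, 4.56 and 4.03 in V580_48h and 6.64 and 6.28 in AM580_48h, so that all 4 treatments were apart. Amn, the partner of Cubn, was at 1.80 and 2.04 FPKM in Con_48h and 2.85 and 2.81 in AM580_48h (0.39 ± 0.11 by limma, adjusted p = 0.0066), a difference under 2-fold, although both AM580 libraries were above both Con libraries. Pdgfra had 20 and 23 reads in Con_48h, 210 and 160 in AM580_48h and 133 and 102 in V580_48h (AM580 against Con 3.21 ± 0.27 by edgeR on reads, adjusted p = 2.3e-08).

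The 3 laminin chains did not move alike. Lama1, the alpha chain that defines laminin-111, was at 1.12 and 1.16 FPKM in Con_48h, 5.43 and 5.77 in AM580_48h and 3.29 and 2.61 in V580_48h (AM580 against Con 1.63 ± 0.10 by limma, adjusted p = 3.5e-09). Lamb1 was at 26.7 and 27.0 FPKM in Con_48h and 32.0 and 31.0 in AM580_48h (0.22 ± 0.05, adjusted p = 0.0017 by limma). Lamc1 was at 39.0 and 38.0 FPKM in Con_48h, 55.1 and 54.7 in AM580_48h and 55.1 and 53.3 in V580_48h (0.50 ± 0.09, adjusted p = 0.00025 for AM580 by limma). The beta and gamma chains were thus well above the alpha chain per length in every treatment library, and their own differences were under 2-fold.

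At 24 h no gene of the 10 reached 2-fold by limma under any compound. AM580 at that time had 43 calls of 10644 genes (0.404%). Without a fold threshold 4 of the 10 were past the adjusted p under AM580 (Sox17, Sox7, Foxa2 and Lama1), where 14.8% of genes were. By edgeR on reads AM580 at 24 h raised Sox17, Foxa2, Pdgfra and Sox7 at least 2-fold (4 of 10, against 1.11% of 12318 genes called higher). Sox17 had 12 and 12 reads in Con_24h, 74 and 60 in AM580_24h and 24 and 22 in V580_24h (AM580 against Con 2.53 ± 0.30, adjusted p = 7.4e-06 by edgeR on reads). Pdgfra had 21 and 21 reads in Con_24h and 112 and 86 in AM580_24h (2.29 ± 0.31, adjusted p = 3.7e-05 by edgeR on reads), and Foxa2 had 4 and 3 against 22 and 13. Cubn and Dab2 were not called at 24 h by either test. Cubn had 38 and 15 reads in Con_24h and 54 and 35 in AM580_24h (0.81 ± 0.32, adjusted p = 0.11 by edgeR on reads), and Dab2 was at 0.83 and 0.57 FPKM in Con_24h and 0.62 and 0.76 in AM580_24h, which overlap.

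The change of the AM580 difference from 24 h to 48 h was itself tested by limma. It was 1.65 ± 0.10 for Cubn (adjusted p = 1.7e-08), 1.29 ± 0.11 for Dab2 (adjusted p = 9.8e-07) and 1.08 ± 0.14 for Lama1 (adjusted p = 3.4e-05), 3 of 9 genes called where 1.9% of all genes were. Without Con_24h replicate 1 the Lama1 change was 0.95, under 2-fold. For Sox17 the change was 0.29 ± 0.11 (adjusted p = 0.045 by limma) and 0.31 ± 0.45 by edgeR on reads (adjusted p = 0.65). For V580 the change was called for Cubn alone (1.07 ± 0.10, adjusted p = 1.4e-06 by limma, 1.83% of all genes).

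V580 at 48 h raised Cubn alone at 2-fold by limma (1.03 ± 0.07, adjusted p = 1.4e-08), where 1.84% of genes were called higher. Without V580_48h replicate 1 it was 0.99, so that no gene of the 10 was called, and without V580_48h replicate 2 Lama1 was called as well (1.00). By edgeR on reads 7 of the 10 rose (5.58% of genes called higher), the same 7 as with AM580. The largest were Cubn (3.59 ± 0.20, adjusted p = 6.9e-11), Sox7 (2.57 ± 0.28, adjusted p = 4.6e-07) and Pdgfra (2.57 ± 0.30, adjusted p = 1.0e-06). Compared directly with AM580 at 48 h, V580 was lower by limma without a fold threshold for 8 of 9 genes, Lamc1 being the other, where 19.2% of genes were past the adjusted p. None of the 9 reached 2-fold (0.263% of genes did). By edgeR on reads Foxa2 (-1.83 ± 0.35, adjusted p = 0.0013), Cubn (-1.10 ± 0.13, adjusted p = 6.9e-06) and Sox17 (-1.07 ± 0.20, adjusted p = 0.0011) did reach 2-fold, 3 of 10 against 0.958% of genes called lower. At 24 h Sox17, Foxa2, Cubn and Pdgfra were lower with V580 than with AM580 by the same test (4 of 10, 0.649% of genes).

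Vc alone raised or lowered no gene of the 10 at 2-fold by limma at either time, where 0.0846% of genes were called at 24 h and 0.047% at 48 h, nor by edgeR on reads (0.796% and 0.674%). The unadjusted p of limma was below 0.05 for Lama1 and Lamb1 at 24 h and for Dab2 and Amn at 48 h. V580 at 24 h called none either, by limma (0.695%, with Sox7 and Lamb1 below an unadjusted p of 0.05) or by edgeR on reads (2.99%). With Vc alone at 48 h and no fold threshold, Dab2 was higher (0.36 ± 0.08, adjusted p = 0.0082 by limma) and Amn lower (-0.47 ± 0.11, adjusted p = 0.012 by limma). These were 2 of 9 genes where 12.4% of all genes were past the adjusted p. Whether Vc changed the response to AM580 beyond adding to it was tested as an interaction at 48 h. It was negative and past the adjusted p by limma for 6 of 9 genes, with Dab2 at -0.86 ± 0.11 (adjusted p = 0.00064) and Foxa2 at -0.84 ± 0.14 (adjusted p = 0.0032), where 3.61% of genes were past it, and none of the 9 reached 2-fold (0.122% of genes did). By edgeR on reads Dab2 reached it (-1.11 ± 0.14, adjusted p = 0.0002, 1 of 10 against 0.244% of genes called lower), and Foxa2 was at -1.66 ± 0.89 (adjusted p = 0.43).

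Other genes of the same systems were read from lists. With AM580 at 48 h, 4 of 7 tested other endoderm transcription factors rose and none fell by limma, with a median of 1.24 against -0.03 over all tested genes. Gata4, a zinc-finger regulator of endoderm and gonad, rose from 0.80 to 5.52 FPKM (1.85 ± 0.10, adjusted p = 1.5e-09), and Gata6, which specifies primitive endoderm, from 0.12 to 2.03 FPKM (1.42 ± 0.09, adjusted p = 5.7e-09). Eomes, which also marks mesendoderm, rose by 1.24 ± 0.07. Of 11 basement membrane partners 5 rose, with a median of 0.82. They include the collagen chain Col4a2 (8.26 to 20.3 FPKM, 1.20 ± 0.06) and the collagen chaperone Serpinh1 (50.2 to 122 FPKM, 1.26 ± 0.05). Of 8 parietal endoderm genes 4 rose, among them Srgn (1.70 ± 0.08) and Plat (1.23 ± 0.08), and of 9 secreted visceral endoderm genes only 2 were tested, of which Spink1 rose by 1.81 ± 0.26 (adjusted p = 3.7e-05 by limma) and Apom was at 0.49 ± 0.14, under 2-fold. Of 6 tested laminin receptors, 4 other laminin chains and 9 endocytic partners of cubilin none was called. Gata4 averaged 0.24 FPKM in Vc_48h and at most 0.29 FPKM in Con and Vc at 24 h. It therefore passed the filter only with AM580 or V580 libraries, where it is high. Gata6 and other low genes of these lists may have passed it likewise. The list counts and medians are descriptions and no support. Of 6 pluripotency genes Pou5f1 (456 to 189 FPKM) and Sox2 (76.7 to 37.8 FPKM) fell at least 2-fold by limma. Nanog (0.52 ± 0.05, adjusted p = 5.6e-07), Esrrb (0.56 ± 0.06, adjusted p = 1.3e-06) and Zfp42 (0.22 ± 0.05, adjusted p = 0.0033) were higher by limma, each under 2-fold. Klf4 was not past the adjusted p (0.12 ± 0.08, adjusted p = 0.203 by limma). In bulk libraries fewer cells of a type and less RNA per cell cannot be told apart.

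The second question was how the 10 genes changed along the V580 days. From V580_48h to V580_D4 limma called 6 of 10 higher and none lower (Foxa2, Lama1, Sox17, Dab2, Pdgfra and Cubn), where 9.65% of 11563 genes were called higher and 16% in either direction. In V580_48h Foxa2, Sox17 and Pdgfra were under 1 FPKM in both libraries, so these 3 passed the filter through libraries where they are higher, those of day 4 among them, and their calls are no support for the count. Foxa2 was the largest. It rose from 0.57 and 0.32 FPKM in V580_48h to 14.08, 12.23 and 12.02 FPKM in V580_D4 (3.25 ± 0.08, adjusted p = 7.6e-16). Lama1 rose from 3.29 and 2.61 FPKM to 24.9, 19.9 and 21.9 FPKM (2.56 ± 0.10, adjusted p = 2.5e-13 by limma), and Sox17 from 0.68 and 0.48 FPKM to 7.01, 6.07 and 5.73 FPKM (2.20 ± 0.08, adjusted p = 2.5e-13 by limma). Sox7 and Amn went the other way without reaching 2-fold, Sox7 from 0.99 and 1.01 FPKM to 0.60, 0.51 and 0.51 FPKM (-0.38 ± 0.07, adjusted p = 0.00013 by limma). By edgeR on reads Amn did reach it (-1.35 ± 0.29, adjusted p = 0.00026). The matrix around laminin moved in the same step. Of 13 basement membrane partners 9 rose and none fell by limma, led by Nid2 (18.9 to 144 FPKM, 2.87 ± 0.06), which links laminin to collagen, with a list median of 1.70 against 0.04 over all tested genes. Of 5 ligands and receptors of the PDGF family 4 rose, led by Pdgfc (2.17 to 14.0 FPKM, 2.24 ± 0.05). Pdgfb averaged 0.38 FPKM in V580_48h and passed the filter through libraries where it is higher, so its call is no support for that count. The 24 h and 48 h libraries and the V580 days are separate sets of libraries in the same table, so the step from 48 h to day 4 and any difference between the sets cannot be told apart.

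**Figure D2:**
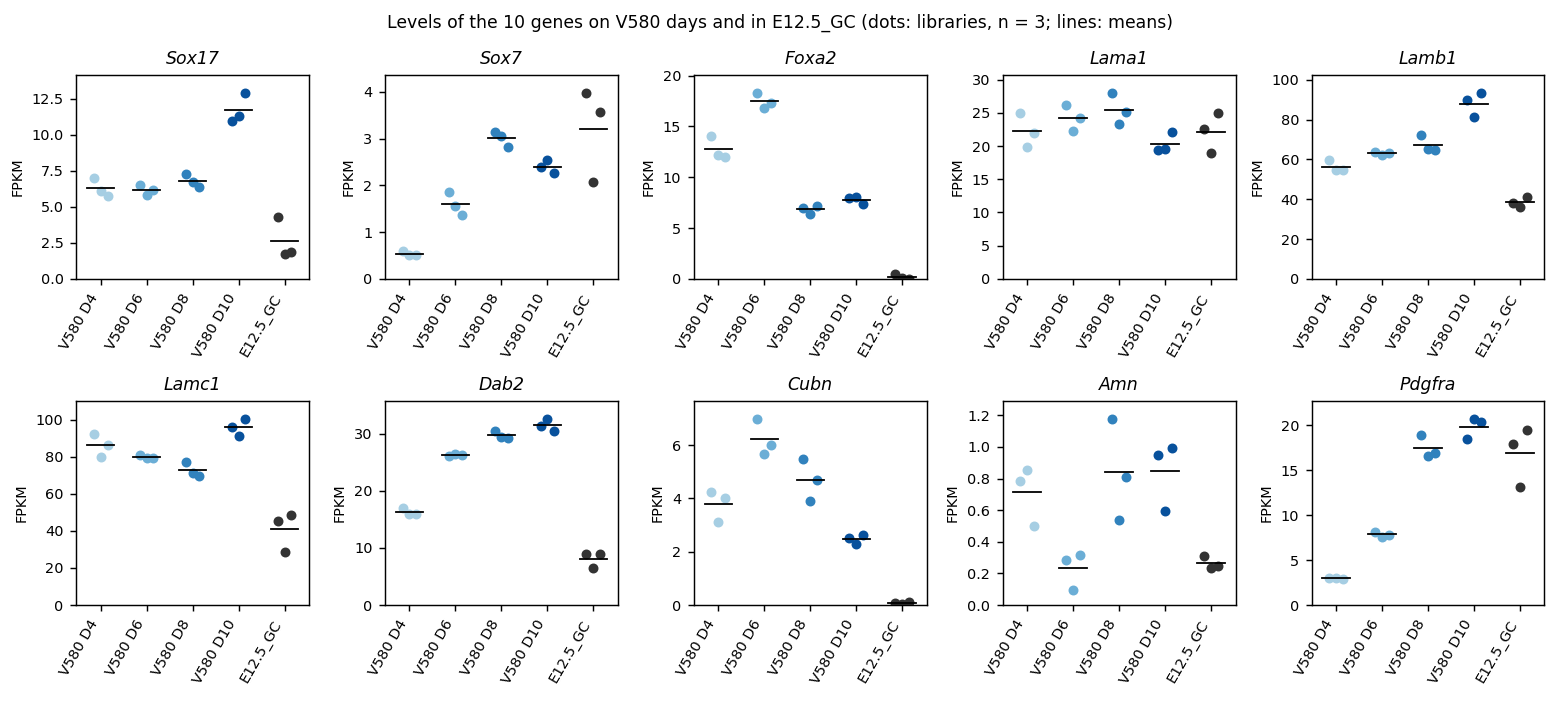
FPKM (vertical axis, from 0, a separate scale for each gene) of the 10 genes on V580 days 4, 6, 8 and 10 and in E12.5_GC; dots are libraries (n = 3) and lines are means. Foxa2 is highest on day 6 at 16.8 to 18.3 FPKM, Pdgfra climbs from 2.88 to 3.07 FPKM on day 4 to 18.5 to 20.7 FPKM on day 10, and Lama1 overlaps E12.5_GC on every day.

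Between days the genes took separate courses. Pdgfra was at 3.07, 3.01 and 2.88 FPKM on day 4, 8.18, 7.62 and 7.81 on day 6, 18.9, 16.6 and 17.0 on day 8, and 18.5, 20.7 and 20.3 on day 10. The first 2 steps were called by limma (1.15 ± 0.11, adjusted p = 5.6e-07, and 1.06 ± 0.11, adjusted p = 2.4e-06), and days 8 and 10 overlapped. By limma it was the only one of the 9 tested genes called between days 4 and 6, where 5.08% of genes were. Sox7 was also called higher between these days by edgeR on reads (1.57 ± 0.23, adjusted p = 4.9e-05), and Amn lower. Foxa2 peaked on day 6 at 18.3, 16.8 and 17.3 FPKM and then fell to 6.99, 6.38 and 7.15 FPKM on day 8 (-1.24 ± 0.10, adjusted p = 4.9e-07 by limma), when 0.252% of genes were called lower and 2.55% in either direction. Cubn, the endocytic receptor, was between 3.10 and 4.23 FPKM on day 4, 6.96, 5.68 and 6.02 on day 6, 5.48, 3.92 and 4.67 on day 8, and 2.53, 2.30 and 2.61 on day 10. Each of its steps was under 2-fold, the last being -0.70 ± 0.11 (adjusted p = 0.00019 by limma).

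Dab2 and Lamb1 were lowest on day 4. Dab2 was between 15.96 and 17.07 FPKM on day 4 and at 26.1, 26.4 and 26.2 on day 6 (0.65 ± 0.09, adjusted p = 2.1e-05 by limma), and it then stayed between 29.2 and 32.5 FPKM on days 8 and 10. Lamb1 was at 59.8, 54.5 and 54.5 FPKM on day 4 and at 89.8, 81.2 and 93.3 on day 10. Sox17 did not differ detectably over days 4, 6 and 8, which spanned 5.73 to 7.24 FPKM, and was at 10.96, 11.27 and 12.87 FPKM on day 10 (day 10 against day 8 0.71 ± 0.18, adjusted p = 0.0076 by limma, under 2-fold). Between days 8 and 10 none of the 9 was called at 2-fold by limma (1.29% of genes were) or by edgeR on reads (4.71%), and 5 were past the adjusted p without a fold threshold (34.5%). Amn stayed under 1.2 FPKM on every day and was not tested by limma. Its reads were lower on day 6 than on day 4 by edgeR (-1.58 ± 0.40, adjusted p = 0.0054) and higher on day 8 than on day 6 (1.85 ± 0.39, adjusted p = 0.0018). It was also higher than in E12.5_GC on day 4 (1.40 ± 0.39), day 8 (1.68 ± 0.38) and day 10 (1.66 ± 0.39) by that test.

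Set against E12.5_GC, the genes of the V580 days fell on both sides of the gonad. Limma called 4 genes higher and 2 lower on day 4 (20.4% of 11512 genes called), 4 higher on day 6 (15.2%), 4 higher on day 8 (13%) and 6 higher on day 10 (16.4%). Foxa2, Cubn and Sox17 were called higher on each of the 4 days. Foxa2 and Cubn passed the filter of 1 FPKM in 3 libraries only through the V580 days, where they are high, so their calls are no support for these counts. Foxa2 was at 0.44, 0.11 and 0.02 FPKM in E12.5_GC, which is 29, 6 and 1 reads, so its difference on day 6 was 3.97 ± 0.10 by limma (adjusted p = 2.0e-13) and 6.36 ± 0.30 by edgeR on reads (adjusted p = 1.0e-10). Cubn was at 0.09, 0.05 and 0.10 FPKM in E12.5_GC, with a day 6 difference of 2.74 ± 0.11 (adjusted p = 1.2e-11 by limma). These gonad libraries were close to the floor for both genes, and no V580 library overlapped them.

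Sox17 was at 4.28, 1.73 and 1.89 FPKM in E12.5_GC. The highest value was in replicate 1, the library that also stood apart in the summed level of the liver list. The Sox17 difference was 1.06 ± 0.18 on day 4, 1.05 ± 0.18 on day 6 and 1.16 ± 0.18 on day 8, each just past 2-fold by limma (adjusted p = 8.6e-05, 0.00012 and 5.2e-05). Without E12.5_GC replicate 2 they were 0.89, 0.87 and 0.99, and without replicate 3 those of days 4 and 6 were 0.93 and 0.92, all under 2-fold. Without V580_D4 replicate 1 the day 4 difference was 0.99. On day 10 it was 1.87 ± 0.18 (adjusted p = 2.9e-07 by limma). Sox17 is also an endothelial gene, and endothelial genes in these libraries are given above; their part in the E12.5_GC level was not tested.

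Sox7 and Pdgfra began below the gonad and reached it. Sox7 was at 3.97, 2.07 and 3.56 FPKM in E12.5_GC, at 0.60, 0.51 and 0.51 on day 4 (-1.42 ± 0.13, adjusted p = 1.9e-07 by limma) and at 3.14, 3.06 and 2.82 on day 8, which overlap E12.5_GC. Of the 6 endothelial genes, Kdr was called higher than E12.5_GC on day 8 by limma (44.7 against 15.5 FPKM) and the other 5 lower, such as Cdh5 (3.40 against 28.2 FPKM) and Pecam1 (0.28 against 12.2 FPKM). Their part in the Sox7 level was not tested. Pdgfra was at 18.0, 13.2 and 19.5 FPKM in E12.5_GC, and its difference was -2.15 ± 0.11 on day 4 (adjusted p = 1.1e-10 by limma), -0.995 ± 0.11 on day 6, just short of 2-fold, and 0.06 ± 0.11 on day 8 (adjusted p = 0.62). On day 6 it was called without E12.5_GC replicate 2 (-1.15) or without V580_D6 replicate 1 (-1.02), and by edgeR on reads (-1.10 ± 0.11, adjusted p = 4.8e-07).

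The laminin chains differed from each other here too. Lama1 was at 22.59, 18.96 and 25.04 FPKM in E12.5_GC and between 19.4 and 28.0 FPKM in the 12 libraries of the V580 days, with differences from -0.11 ± 0.11 on day 10 to 0.20 ± 0.11 on day 8 (adjusted p = 0.36 and 0.12 by limma). No difference was detectable with this spread, which does not show that the levels were equal. Lamb1 was at 38.2, 36.2 and 41.1 FPKM in E12.5_GC, below every V580 library, and was called higher on day 10 (1.17 ± 0.07, adjusted p = 1.6e-09 by limma). Lamc1 was at 45.5, 28.8 and 48.5 FPKM in E12.5_GC against 92.4, 79.6 and 86.3 on day 4 (1.09 ± 0.14, adjusted p = 5.6e-06 by limma) and was called on days 4 and 10. Without E12.5_GC replicate 2, the lowest library, its day 4 difference was 0.86, and without replicate 1 or 3 its day 6 difference passed 2-fold at 1.08 and 1.12. Dab2 was at 8.87, 6.54 and 8.92 FPKM in E12.5_GC and was called higher on days 6, 8 and 10 (1.59 ± 0.09, 1.76 ± 0.09 and 1.84 ± 0.09 by limma), and on day 4 also without E12.5_GC replicate 1 or 3 (1.00 and 1.01).

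Lists of related genes were read beside these differences. On day 10 against E12.5_GC, 9 of 13 basement membrane partners were higher and none lower by limma, led by P4ha2 (3.76 to 25.8 FPKM, 2.49 ± 0.08) and Nid2 (2.18 ± 0.11), with a median of 1.16 against 0.03 over all tested genes. On day 6 only Nid2 (1.53 ± 0.11) and Agrn (1.13 ± 0.12) were higher, and Nid1 was lower (-1.54 ± 0.17). Among other laminin chains Lama5 was higher on day 6 (5.62 to 67.6 FPKM, 3.40 ± 0.13) and Lama4, a chain of vessels, was lower (-1.71 ± 0.12). Of 7 laminin receptors Itga3 (2.71 ± 0.07), Itgb4 (2.02 ± 0.07) and Bcam (1.27 ± 0.11) were higher on day 6 and Itga6 lower (-1.83 ± 0.09). Among cubilin partners Lrp2, the large receptor that works with it, was higher on day 6 (0.19 to 3.39 FPKM, 1.89 ± 0.10, adjusted p = 2.6e-10). Among other endoderm factors Gata4 was lower (144 to 17.0 FPKM), a gene also on the gonadal list, of which 7 of 8 were lower. Nr5a1, Lhx9 and Kctd14, near 0 on the V580 days, passed the filter through E12.5_GC, where they are high. Their calls are no support for that count.

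The third question was which cells held these transcripts on day 6. The single-cell library was clustered without the 10 genes among the variable genes, which gave 12 clusters, and no doublet caller was run. It is 1 library, so no test was made, and the intervals below are 95% exact intervals that cover counting error only. Cluster 7 held 889 cells (5.80% of all) with a median of 23427 UMIs, and its leading genes were Srgn, Rbp4, Pitx1, Hs3st1, S100g, Cubn, Fst and Flt1. All 8 visceral endoderm markers and 6 of 7 parietal endoderm markers were at least 2-fold higher there than in the other cells, which leaves it without a single name. Of the secreted visceral endoderm genes, Rbp4 was at 7.21 UMIs per 10000 in cluster 7 against 0.347 in the other cells. Apoa1 at 0.587, Ttr at 0.336 and Afp at 0.041 UMIs per 10000 were well below Rbp4 there. The mesothelial gene Upk3b was at 0.203 UMIs per 10000 in cluster 7 and 1.18 in all cells, and the interstitial gene Col1a1 at 0.204 and 1.43.

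**Figure D3:**
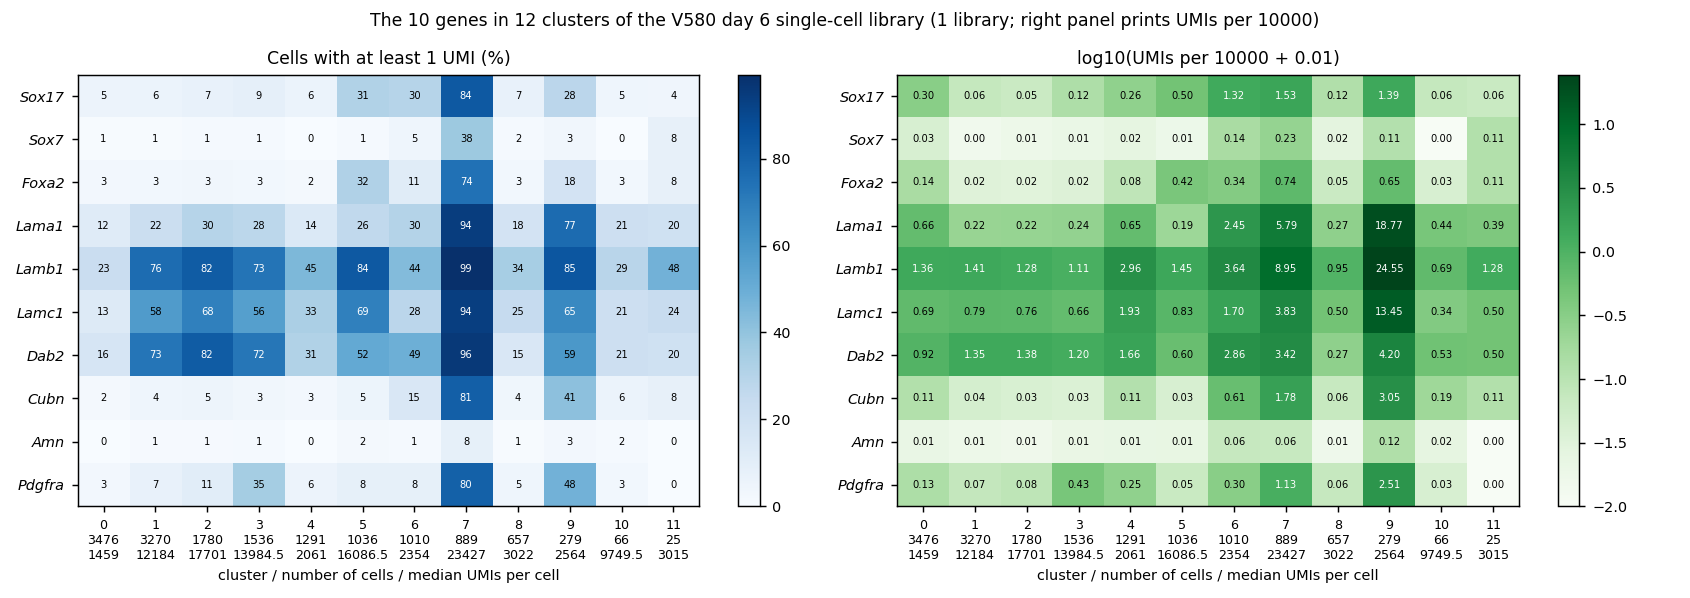
Share of cells with at least 1 UMI (left, percent) and UMIs per 10000 (right, colour on a log10 scale, printed values linear) of the 10 genes in 12 clusters of the V580_D6 single-cell library; columns give the cluster, its cells and its median UMIs. Cluster 7, the deepest with a median of 23427 UMIs, has the highest share of cells for every gene. Cluster 9 has the highest UMIs per 10000 for the 3 laminin chains, Cubn, Dab2, Pdgfra and Amn. With cells thinned to 2000 UMIs (not shown), which left out 105 cells of cluster 9, its shares were above those of cluster 7 for all of these but Amn.

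Most of the transcripts of the regulators came from cluster 7. Sox17 was in 83.8% of its cells (81.2 to 86.2%) and in 14.5% of all cells, and cluster 7 held 56.8% of all Sox17 UMIs. Foxa2 was in 74.4% (71.3 to 77.2%) with 55.4% of its UMIs, and Sox7 in 37.6% (34.4 to 40.8%) with 74.6%. In clusters 1 and 2, where no endoderm marker was 2-fold higher than elsewhere, Sox17 was found in 5.96% and 7.30% of cells. Their median depths were 12184 and 17701 UMIs, and these shares are taken here as the background of deep clusters only. Sox17 was at 0.063 and 0.054 UMIs per 10000 there. It was higher, at 0.301 and 0.259, in the shallow clusters 0 and 4 (medians of 1459 and 2061 UMIs). Cubn was the most concentrated gene, with 81.4% of cells (78.7 to 83.9%) and 79.7% of its UMIs in cluster 7. Lama1 was in 94.2% of cells with 68.5% of UMIs, Pdgfra in 80.4% with 53.7%, Lamb1 in 99.3% with 48.5%, Lamc1 in 93.6% with 41.5% and Dab2 in 95.5% with 31.5%. The last 3 genes were widespread, with Lamb1 in 76.1% and 82.3%, Lamc1 in 57.5% and 68.3% and Dab2 in 72.7% and 82.3% of the cells of clusters 1 and 2. There Lama1 was in 21.8% and 29.8%, Pdgfra in 7.09% and 10.5%, Cubn in 4.28% and 4.83% and Foxa2 in 2.72% and 3.43%. Amn was in 8.44% of its cells. Depth was part of these shares. With each cell thinned to 2000 UMIs, which left out 3800 cells but none of cluster 7, Sox17 was in 27.6% of the cells of cluster 7, Cubn in 26.5% and Lama1 in 52.2%, against 1.20%, 0.58% and 4.32% of the 3261 thinned cells of cluster 1. Other clusters were closer to cluster 7 at this depth. In cluster 9 Sox17 was in 19.5%, Cubn in 35.6% and Lama1 in 79.9% of 174 thinned cells. In cluster 6 these were 20.3%, 9.20% and 22.0% of 587 thinned cells.

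The same cells carried several of the genes. Sox17, Foxa2, Cubn, Lama1 and Dab2 were all found in 489 cells (3.19% of all), and 464 of them were in cluster 7, 52.2% of its cells. Over all cells Foxa2 was in 37.8% of the 2225 cells with Sox17 and in 4.97% of the others. After thinning these shares were 7.77% and 2.52%. Within cluster 7 the difference was smaller, with Foxa2 in 76.9% of Sox17-positive and 61.1% of other cells, and Cubn in 83.1% and 72.9%.

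Clusters 9, 6 and 5 held parts of the set. Cluster 9, of 279 cells with a median of 2564 UMIs against 9281 in all cells, was led by Lama1 itself, with Tinagl1, Kit, Lamc1, Lrp2, Col4a2 and Lamb1. There Lama1 was at 18.8 UMIs per 10000 (17.9 to 19.7) against 5.79 in cluster 7, Lamb1 at 24.6 against 8.95, Lamc1 at 13.45 against 3.83 and Cubn at 3.05 against 1.78. Its Sox17 level was 1.39 UMIs per 10000 against 1.53 in cluster 7, with overlapping intervals (1.16 to 1.65, and 1.48 to 1.58). Cluster 6, of 1010 cells with a median of 2354 UMIs, had 7 of 8 visceral endoderm markers at least 2-fold higher than the other cells. It held Sox17 at 1.32 and Dab2 at 2.86 UMIs per 10000, but Lama1 at 2.45 and Cubn at 0.607. Both clusters were shallow, so their shares of cells with a UMI are not compared with those of cluster 7.

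Cluster 5 was high in Sox17 and Foxa2 but not in Sox7, Cubn or Lama1. Its 1036 cells, with a median of 16086.5 UMIs, were led by Wfdc2, Stra8, Cxcl15, Cldn3 and Wnt6, and had no endoderm marker at 2-fold. All 5 pluripotency markers were at least 2-fold higher there. Sox17 was in 31.4% of its cells (28.6 to 34.3%) and Foxa2 in 31.6% (28.7 to 34.5%), with 15.2% and 26.0% of all their UMIs. Sox7 was in 1.35% of its cells against 3.31% of all cells. Cubn was in 5.21% of its cells and Lama1 in 26.3%, against 4.28% and 21.8% in cluster 1. In counts, cluster 5 held 938 Sox17, 792 Foxa2 and 58 Cubn UMIs, and cluster 7 held 3498, 1689 and 4075, so the genes were not in 1 ratio in both. In cluster 5 Foxa2 was in 46.8% of the Sox17-positive cells and in 24.6% of the others. Thinned to 2000 UMIs, Sox17 was in 8.06% and Foxa2 in 7.18% of its cells. Pdgfra had a further site of its own, cluster 3, led by Myh11, Lum and Col1a1, where it was in 35.3% of cells with 21.2% of its UMIs.

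The last question was how the 10 genes stood in gonadal somatic cells of the female mouse across stages. Levels are CPM, the counts of a gene scaled to the total of its library, and a call was an adjusted p below 0.05 by edgeR with no fold threshold. Foxa2 and Amn were too low to be tested, which left 8. Foxa2 had counts of 0 in all 4 libraries of E12.5_GSC and E13.5_GSC, 5 and 2 in E16.5_GSC and 0 and 3 in P6w_GSC, and Amn had between 1 and 22 counts. Sox17 was low as well, at 0.56 and 0.95 CPM in E12.5_GSC, and Cubn at 0.25 and 0.70 CPM. In these libraries Sox17 and Foxa2 were at no more than 19 counts. The E12.5_GC libraries of the FPKM table, by contrast, held 567, 194 and 177 reads of Sox17.

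**Figure D4:**
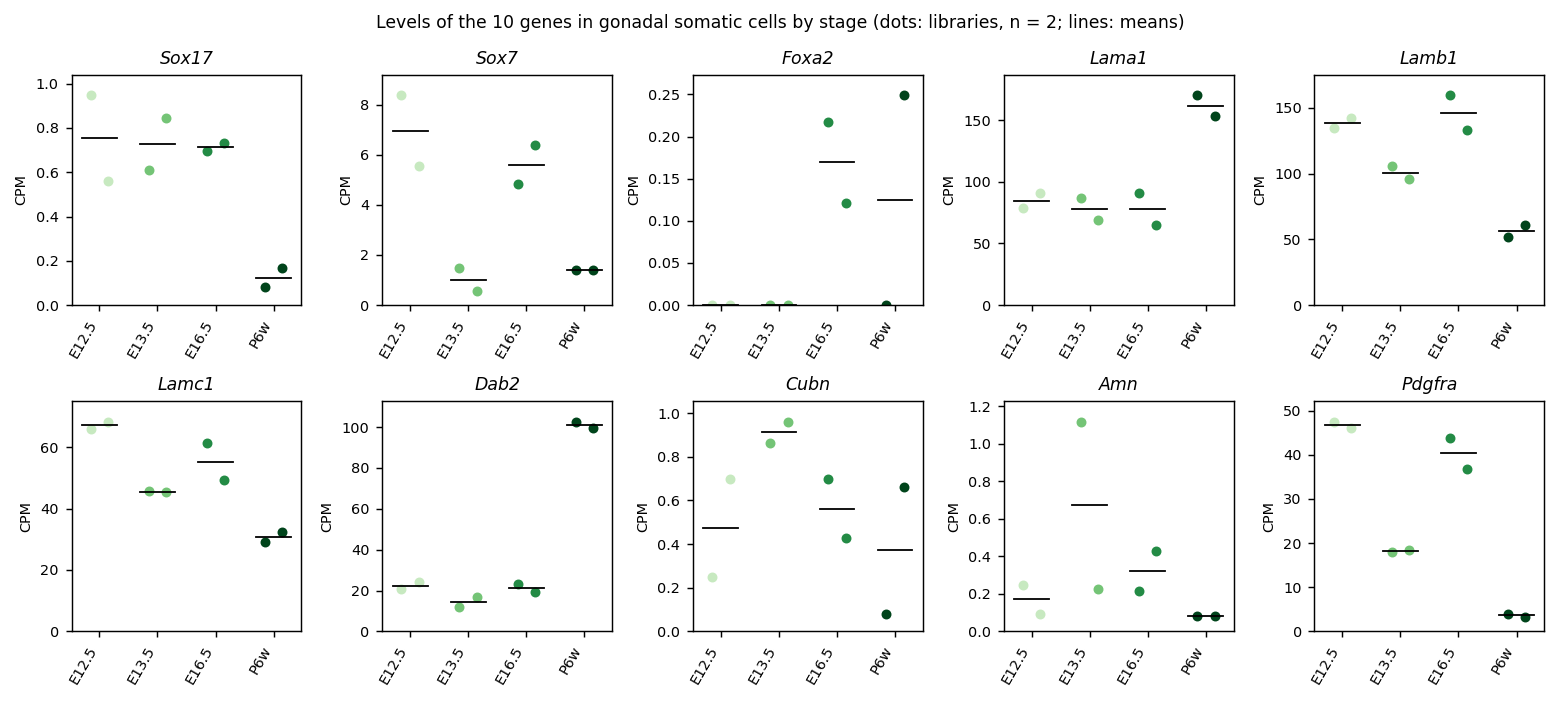
Gonadal somatic cells by stage, from E12.5 on the left to P6w on the right of each panel, with CPM of the 10 genes on the vertical axis (from 0, a separate scale for each gene); dots are libraries (n = 2) and lines are means. Dab2 and Lama1 are highest at P6w, at 99.6 to 103 CPM and 153 to 170 CPM, where Lamb1, Lamc1 and Pdgfra are lowest.

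The largest differences were between the adult ovary and the embryo. P6w_GSC against E12.5_GSC had 2 genes higher and 5 lower of 8 tested, where 52.9% of 16398 genes were called, and P6w_GSC against E16.5_GSC had the same counts (56.1%). Dab2 rose from 20.53 and 24.04 CPM to 103 and 99.6 CPM (2.20 ± 0.18, adjusted p = 5.5e-08 by edgeR), and Lama1 from 78.7 and 91.0 CPM to 170 and 153 CPM (0.95 ± 0.16, adjusted p = 0.00014 by edgeR). Pdgfra fell from 47.5 and 46.0 CPM to 3.90 and 3.32 CPM (-3.67 ± 0.19, adjusted p = 4.3e-10 by edgeR), Lamb1 from 134 and 142 CPM to 52.0 and 60.7 CPM (-1.28 ± 0.13, adjusted p = 1.0e-06 by edgeR) and Lamc1 from 66.0 and 68.3 CPM to 29.2 and 32.3 CPM (-1.11 ± 0.14, adjusted p = 1.1e-05 by edgeR). In each of the 5 the groups did not overlap. Sox7 fell by 2.29 ± 0.41 (adjusted p = 0.00024 by edgeR). Sox17 was called lower on 1 and 2 counts in P6w_GSC (-2.52 ± 0.88, adjusted p = 0.025 by edgeR). Without E12.5_GSC replicate 2 or either P6w_GSC replicate that adjusted p was between 0.083 and 0.17, so the call rests on single libraries.

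The lists showed the same unequal movement in the adult. Of 14 basement membrane partners 7 rose and 6 fell by edgeR. Col4a4 rose by 2.80 ± 0.32 and Col4a3 by 2.05 ± 0.40, and Nid1 and Nid2 fell by 2.45 ± 0.18 and 2.32 ± 0.18. Of 8 other laminin chains Lamb2 (50.2 to 146 CPM, 1.55 ± 0.13) and Lamc3 (1.08 ± 0.29) rose and Lamb3 fell by 2.05 ± 0.63. Of 8 parietal endoderm genes 7 fell and none rose. Of 7 endothelial genes 6 fell, with a summed level of 264 to 267 CPM at E12.5 and 42.8 to 51.2 CPM at P6w.

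E13.5_GSC was compared with both neighbouring stages. Against E12.5_GSC 5 of 8 genes were lower and none higher by edgeR (45.9% of genes called, 22.1% lower). Sox7 went from 8.37 and 5.56 CPM to 1.47 and 0.56 CPM (-2.73 ± 0.40, adjusted p = 8.1e-05 by edgeR) and Pdgfra from 47.5 and 46.0 CPM to 18.0 and 18.5 CPM (-1.34 ± 0.16, adjusted p = 1.4e-05 by edgeR). Dab2 (-0.60 ± 0.18, adjusted p = 0.013 by edgeR), Lamc1 (-0.54 ± 0.14) and Lamb1 (-0.44 ± 0.13) were lower too. Without E12.5_GSC replicate 1 the adjusted p was 0.11 for Dab2 and 0.085 for Lamb1, without E13.5_GSC replicate 1 it was 0.20 for Dab2, and without E13.5_GSC replicate 2 it was 0.13 for Lamb1. Fold changes in this comparison followed gene length, with a Spearman correlation of -0.49 over 16169 genes, which are not independent replicates. With a smooth length term fitted in each library Sox7 stayed called (-2.54, adjusted p = 0.00017) and Pdgfra too (-0.47, adjusted p = 0.017), while Lamb1 turned to 0.42 (adjusted p = 0.014), Lamc1 to 0.21 (adjusted p = 0.21) and Dab2 to 0.08 (adjusted p = 0.74). Lama1, which was not called (-0.10 ± 0.16, adjusted p = 0.64 by edgeR), was at 0.74 (adjusted p = 0.00067). The direction of the 3 laminins between these stages therefore depended on that term.

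The E13.5_GSC libraries differed in other tissues as well. A summed level of 77.7 to 81.1 CPM over 6 fetal liver genes stood against 3.44 to 4.06 CPM at E12.5, and the erythroid sum was at 18601 to 19688 CPM against 11334 to 12344 CPM. Most of this sum was Hbb-y, which was not called (adjusted p = 0.45 by edgeR). Alas2 (1.51 ± 0.12) was called higher and Hbb-bh1 lower (-1.61 ± 0.19). Endothelial genes were at 135 to 150 CPM against 264 to 267 CPM, in the same direction as Sox7, and their part in it was not tested. Against E13.5_GSC, E16.5_GSC had 4 of 8 genes higher and none lower, where 54.1% of all genes were called, so the count is no result about the set. The 4 by edgeR were Sox7 (2.42 ± 0.40, adjusted p = 0.00015), Pdgfra (1.14 ± 0.16, adjusted p = 2.5e-05), Dab2 (0.55 ± 0.18) and Lamb1 (0.53 ± 0.13). With the length term Pdgfra was at 0.33 (adjusted p = 0.07), Lamb1 at -0.27 and Dab2 at -0.12. E16.5_GSC against E12.5_GSC had none of the 8 called by edgeR or by DESeq2, where 37.6% of genes were called by edgeR, and none of the 8 had an unadjusted p below 0.05 by edgeR. Without E16.5_GSC replicate 1, Lama1 (-0.36) and Lamc1 (-0.43) were called lower.

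The proportion of the alpha to the beta chain was read in both tables as a ratio within a library. Differences between the sets of libraries can remain in such ratios. Lama1 per Lamc1 was 0.557 in E12.5_GC and 1.08 in E12.5_GSC, and Lamb1 per Lamc1 was 0.983 and 1.72. Lama1 per Lamb1, both per exon length, was 0.042 in Con_48h (0.0418 to 0.0429, n = 2), 0.178 in AM580_48h (0.170 to 0.186) and 0.105 in V580_48h (0.0936 to 0.116). It was 0.395 on day 4, 0.384 on day 6, 0.378 on day 8 and 0.232 on day 10 (n = 3 each), where the 3 libraries of day 10 (0.216 to 0.241) lay below those of every other day. In E12.5_GC it was 0.575 (0.523 to 0.610) and in E12.5_GSC 0.628 (0.600 to 0.657). In P6w_GSC it was 2.97 (2.59 to 3.35), the only group with more Lama1 than Lamb1 per length. The ratio shows unequal change of the chains and not which one changed. These are descriptions with no test.

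**Figure D5:**
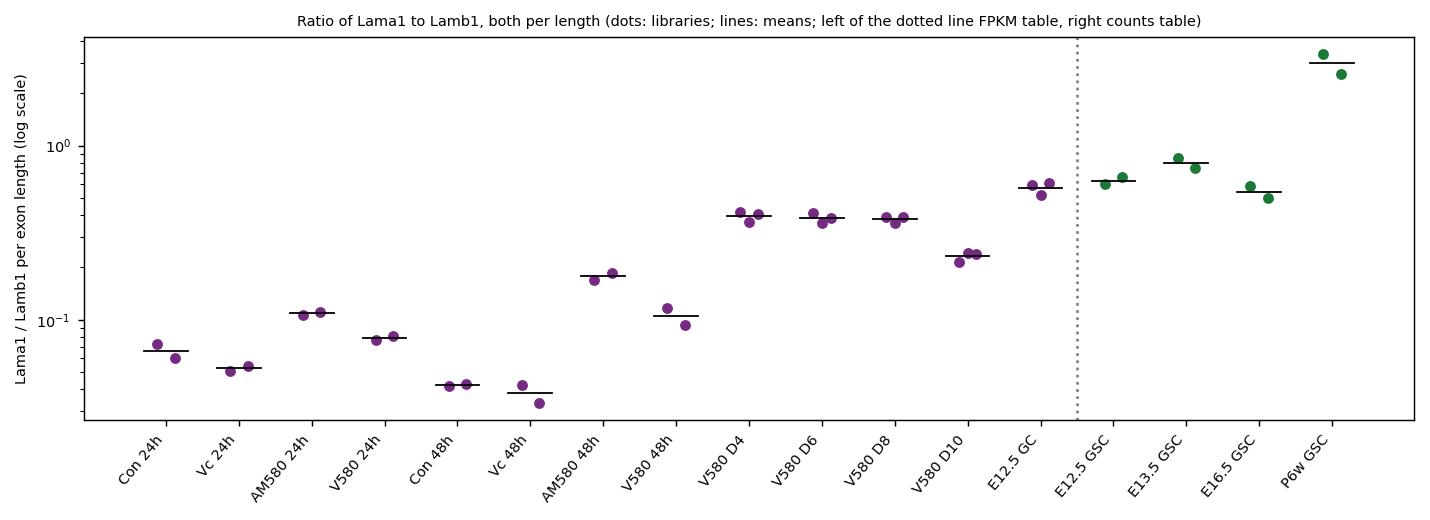
Ratio of Lama1 to Lamb1, both per exon length (vertical axis, log scale), in 17 groups; dots are libraries, lines are means, and the dotted line separates the FPKM table (left) from the count table (right). The ratio runs from 0.038 in Vc_48h to 2.97 in P6w_GSC, and all V580 day libraries lie below E12.5_GC.

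Over the 13 groups of the FPKM table, the group means of the genes were compared on the log scale as a description, since the groups are not independent. They include E12.5_GC and the separate sets of induced libraries, so any difference between these sets enters the correlations. Sox17 followed Lamb1 (Pearson r = 0.98), Lama1 (0.95), Dab2 (0.94) and Foxa2 (0.91), and Foxa2 followed Cubn (0.93). Sox7 (0.60 with Sox17) and Lamc1 (0.50) were less alike to it, and Amn ran the other way (-0.44). Among 9037 genes, those most like Sox17 were Pla2g15 (0.987), Heca (0.986), Manea (0.985), Tmem30a (0.983) and Msx2 (0.983). Those most like Lama1 were Zfp319 (0.989), Zadh2 (0.989) and Stat5b (0.986), and those most like Dab2 were Eml1 (0.987), H2-Q4 (0.987) and Usp25 (0.982).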

How the data were processed

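Of 48 samples, 40 were used, and 8 germ cell libraries were not analysed here, nor were 10 columns of a table that holds them. Reads were trimmed and aligned to mm10 by the authors with Trim Galore and HISAT2, and the stage counts were made with featureCounts and deposited as raw counts per gene. The tool behind the deposited FPKM values is not given in the sources used here. The single-cell counts were deposited by the authors as UMI counts per gene and barcode from Cell Ranger.

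Stage counts were tested with edgeR 4.0.16 (TMM normalization, quasi-likelihood test, R 4.3.3), and log2(FPKM + 1) with limma 3.58.1 for genes at 1 FPKM or more in 3 libraries (days) or 2 libraries (treatments), with a 2-fold threshold. All p-values were adjusted by the Benjamini-Hochberg method over all genes tested. A pseudocount of 1 understates the change of low genes, so whole reads were recovered as FPKM times exon length, where 96.3% to 96.8% of values under 200 reads lay within 0.05 of a whole read, and tested with edgeR, an alternative chosen after seeing the data. Cells with 200 or more genes and at most 40% mitochondrial UMIs were clustered with scanpy 1.11.5 and leidenalg 0.10.2 (2000 variable genes without the 10 genes, 20 components, 20 neighbours, resolution 0.5). Each fit was tested on simulated data. DESeq2 1.42.0 was an alternative. The named genes were the 10 genes in every comparison and up to 4 called genes of each list with the largest change. Some genes that this rule names are not reported here. The genes and lists were chosen with earlier results of these data known. Same-numbered replicates did not deviate together in the stages, where 0 of 12 pairs had a correlation over 0.1. In the days 9 of 30 pairs did (median 0.028, lowest -0.43), and in the treatments 14 of 56 pairs (median 0.016, lowest -0.42). Replicates were not treated as pairs.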

Additional observations from a re-analysis of the deposited data

Results flagged for a closer look

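The response of 3 genes to AM580 differed between the 2 times by a test of the difference itself. Relative to Con on the log2(FPKM + 1) scale, the AM580 difference was larger at 48 h than at 24 h by 1.65 for Cubn, 1.29 for Dab2 and 1.08 for Lama1 (limma, n = 2 per group). The V580 difference of Cubn was larger by 1.07. By edgeR on reads the AM580 change was called for Sox7 as well (2.08).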

How the results depend on the processing

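Over 56 alternatives, 274 of 315 counts of called genes stayed within 1.5 times the reported count and 41 moved. Of 2749 single values 2559 kept their direction and side of the threshold, 37 lost the call, 138 gained it and 7 reversed. The reversals came with a gene-length term, at E13.5 against E12.5 for Lama1 (0.74), Lamb1 (0.42), Lamc1 (0.21) and Dab2 (0.080), and at E16.5 against E13.5 for Lamb1 (-0.27), Lamc1 (-0.45) and Dab2 (-0.12); the cause was not tested. E13.5 against E12.5 had 2 genes called at 2-fold, 3 with a GC term and 3 to 5 when a replicate was left out, and E16.5 against E13.5 had 2 at 2-fold. Leaving out a replicate gave 0 to 2 for E16.5 against E12.5 and for V580 against Con at 48 h, and 1 to 2 for the V580 change from 24 h to 48 h. A pseudocount of 0.1 gave 2 for day 6 against day 4, 3 for AM580 at 24 h, 6 for V580 at 48 h, 2 for V580 against AM580 at 24 h and 2 at 48 h, 5 and 4 for the AM580 and V580 changes over time, and 2 for the interaction at 48 h. Without a fold threshold, which by construction admits smaller changes, there were 8 for day 6 against E12.5_GC, 5, 4 and 5 for the steps between days, 10 for day 4 against 48 h, 2 for Vc at each time, 4 and 9 for AM580 at 24 h and 48 h, 2 and 7 for V580, 5 and 8 for V580 against AM580, 8 and 7 for the changes over time and 6 for the interaction at 48 h. Recovered reads gave 3 for day 6 against day 4, 4 for AM580 at 24 h, 7 for V580 at 48 h, 4 and 3 for V580 against AM580, 5 for the V580 change over time and 1 for the interaction. Thinning lowered the share of Sox17-positive cells with Foxa2 to 7.77%. The replicate block, run although the replicate numbers are not known to pair the samples, kept every call of a single value (221 of 221). For AM580 at 48 h it gave 5 genes.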
